A study of Mus musculus with 96 samples.

Results

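The 32 genes described here encode the proteins that take up glucose, break it down to lactate and store it as glycogen. They were chosen as the rows of the gene count table whose gene name is one of 32 listed symbols, and they filled 33 of its 54150 rows, because Aldoa has 2 rows. The second Aldoa row (ENSMUSG00000114515) stayed at 2.46 CPM (counts scaled to library size) or lower in every sample and was kept out of all counts of genes, although some Aldoa reads may have been assigned to it. The list was not chosen from measured values, but it was chosen with earlier results of these data known.

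Glucose enters muscle cells through GLUT transporters, is trapped by hexokinase as glucose 6-phosphate, and then either goes to glycogen or down glycolysis to pyruvate, giving ATP and NADH. Phosphofructokinase sets the pace of the pathway, and the bifunctional PFKFB enzymes make the fructose 2,6-bisphosphate that activates it. When the mitochondrial electron transport chain is blocked, cells lean on glycolysis for ATP, and lactate dehydrogenase returns NADH to NAD+ as it turns pyruvate into lactate, which leaves through monocarboxylate transporters. Skeletal muscle has isoforms of its own at several of these steps, and others are regulated by oxygen through the hypoxia-inducible factors.

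RNA-seq was measured in 96 samples in 35 groups of C2C12, a mouse myoblast line that fuses into myotubes in low serum, in media with 10 mM glucose and no pyruvate. Proliferating myoblasts, in 10% serum with 300 ng/ml doxycycline, carried 1 of 4 doxycycline-inducible genes: luciferase as the control, LbNOX, a bacterial NADH oxidase that acts in the cytosol, mitoLbNOX, the same enzyme sent to mitochondria, or NDI1, a yeast NADH dehydrogenase that bypasses complex I. These were stable lentiviral lines, so a transgene cannot be told apart from other differences between its line and the luciferase line. Post-mitotic cells, in 2% serum for 1 day, carried no transgene. Myotubes were treated after 4 days in 2% serum and were untransduced or transduced with adenovirus that expressed GFP alone or GFP with LbNOX. Treatments lasted 10 hr and were DMSO, 0.5 µM piericidin, which inhibits complex I, 0.5 µM antimycin, which inhibits complex III, or 1 µM oligomycin, which inhibits ATP synthase. Untransduced myotubes also received 0.5 µM BAM15, an uncoupler, oligomycin with piericidin or with BAM15, or were kept at 5% oxygen from the night before and through treatment, with DMSO or oligomycin. Luciferase and LbNOX myoblasts received 20 µg/ml chloramphenicol, which blocks mitochondrial protein synthesis, or DMSO for 48 hr. Unlike the 10 hr samples, these were grown from fewer seeded cells and with uridine. Antimycin was sampled in control, LbNOX and mitoLbNOX myoblasts and in untransduced myotubes, and NDI1 cells received DMSO and piericidin. There were 3 samples per group in 26 groups and 2 in 9 groups (NDI1 myoblasts, all 48 hr groups and GFP myotubes). Nothing states that replicates came from separate cultures, so p-values measure only the spread between these samples.

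Samples held 6458295 to 15366745 estimated counts, of which these genes took between 0.597% and 2.38%. Of 87 replicate pairs, 0 were identical. Luciferase and NDI1 counts were found only in cells labelled for them, LbNOX counts in LbNOX and mitoLbNOX cells, and eGFP counts in GFP and LbNOX myotubes. The 7 muscle differentiation markers (Myog, Myh3, Ckm, Acta1, Tnnt3, Mymk and Des) summed to 410.4 to 427 CPM in control myoblasts, 12655 to 13312 at day 1 and 14880.4 to 15233 in DMSO myotubes, and the 4 proliferation markers (Mki67, Top2a, Ccnb1 and Cdk1) to 1061 to 1109, 179 to 200.3 and 101 to 125. The 3 myoblast markers (Myf5, Pax7 and Myod1) summed to 135 to 138, 224 to 239 and 165 to 172. Each of 9 markers of adipocytes, macrophages and endothelium stayed at 3.53 CPM or lower in every sample. Levels are CPM, the counts of a gene relative to the library total after scaling by TMM, the trimmed mean of M-values. A gene is said to have risen or fallen where the quasi-likelihood F test of edgeR gave a Benjamini-Hochberg adjusted p under 0.05 over all genes tested, and errors after ± are standard errors (SE) for log2 fold changes and SD for levels and shares. In bulk RNA, fewer cells of a type and less RNA per cell cannot be told apart.

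Promoters are shown for genes that stand for the responses described below, in the 250 bases before the RefSeq transcription start on GRCm38.p6. RefSeq promoters were matched for 30 of the 32 genes, all but Slc2a3 and Slc2a4. Capitals mark ACGTG, the core of the hypoxia response element, and CAGCTG, an E-box of the kind bound by myogenic factors, on either strand. ACGTG overlaps the E-box CACGTG, so adjoining matches can be 1 palindrome. At least 1 promoter held ACGTG for 14 of the 30 genes (46.7%, against 18.5% of 27025 genes with a promoter and 16.6% of 32851 promoters), and CAGCTG for 7 of the 30 (23.3%, against 14.7% of genes and 13.0% of promoters). A gene with several promoters, as some of these have, has more chances of a match, and the per-promoter shares are for all promoters only. Slc2a1, Pgk1 and Ldha are shown as genes with ACGTG whose RNA was raised at 5% oxygen. Pfkl is shown because it was raised there without an ACGTG in this window. These genes were picked partly for the motif and do not show how often genes with it rose, which is given below. Pgam2 and Pygm are shown as muscle isoforms that fell there. Ldha has a second RefSeq promoter, chr7:46846832-46847081, which held 0 ACGTG and is not printed, and the other 5 genes shown have 1 each. A match is a description of the letters and not evidence of binding.
Slc2a1, chr4:119108495-119108744, plus strand: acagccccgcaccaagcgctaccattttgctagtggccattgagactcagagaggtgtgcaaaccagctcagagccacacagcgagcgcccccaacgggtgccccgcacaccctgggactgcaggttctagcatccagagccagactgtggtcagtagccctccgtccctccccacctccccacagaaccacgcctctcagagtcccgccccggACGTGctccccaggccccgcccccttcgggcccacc
Pgk1, chrX:106186850-106187099, plus strand: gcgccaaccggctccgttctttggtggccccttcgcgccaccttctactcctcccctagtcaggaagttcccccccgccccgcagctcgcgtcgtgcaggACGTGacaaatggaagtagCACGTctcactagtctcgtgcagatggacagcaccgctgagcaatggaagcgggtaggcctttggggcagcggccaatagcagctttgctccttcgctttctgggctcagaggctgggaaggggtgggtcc
Ldha, chr7:46845554-46845803, plus strand: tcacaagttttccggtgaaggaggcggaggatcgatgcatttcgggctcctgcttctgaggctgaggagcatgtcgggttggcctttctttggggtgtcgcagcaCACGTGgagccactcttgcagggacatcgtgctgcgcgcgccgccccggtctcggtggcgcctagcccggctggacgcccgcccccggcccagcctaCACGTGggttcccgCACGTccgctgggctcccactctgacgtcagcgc
Pfkl, chr10:78009808-78010057, minus strand: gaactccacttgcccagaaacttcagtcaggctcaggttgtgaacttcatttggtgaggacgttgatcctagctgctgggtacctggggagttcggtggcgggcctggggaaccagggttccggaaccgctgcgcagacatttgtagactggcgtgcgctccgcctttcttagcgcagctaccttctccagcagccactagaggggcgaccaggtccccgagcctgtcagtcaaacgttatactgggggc
Pgam2, chr11:5803797-5804046, minus strand: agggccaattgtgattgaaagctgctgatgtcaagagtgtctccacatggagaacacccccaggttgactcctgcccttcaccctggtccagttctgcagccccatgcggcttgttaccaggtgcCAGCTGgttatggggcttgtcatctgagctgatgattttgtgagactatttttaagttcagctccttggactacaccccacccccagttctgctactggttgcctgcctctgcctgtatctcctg
Pygm, chr19:6384158-6384407, plus strand: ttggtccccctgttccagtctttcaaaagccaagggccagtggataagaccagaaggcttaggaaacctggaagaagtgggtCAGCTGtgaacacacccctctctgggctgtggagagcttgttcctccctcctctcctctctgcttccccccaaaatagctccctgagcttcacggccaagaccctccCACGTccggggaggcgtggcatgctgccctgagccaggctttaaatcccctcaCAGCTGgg

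In GENCODE M21 on GRCm38 these genes span chromosome 4, 119108711 to 119137983 (Slc2a1, plus strand), chromosome X, 106187100 to 106203699 (Pgk1, plus strand), chromosome 7, 46841475 to 46855627 (Ldha, plus strand), chromosome 10, 77986947 to 78010083 (Pfkl, minus strand), chromosome 11, 5801640 to 5803733 (Pgam2, minus strand) and chromosome 19, 6384399 to 6398459 (Pygm, plus strand). The printed Ldha and Pfkl windows lie inside the GENCODE spans, the Slc2a1 and Pygm windows reach into them, and the Pgk1 and Pgam2 windows lie upstream.

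The first question was how these genes differ between the cell states under DMSO. The muscle isoforms Pfkm, Pgam2, Eno3 and Pygm rose, and Slc2a1 and Pfkfb3 fell at day 1 and rose again in myotubes. Between control myoblasts and myotubes, 18 of 31 genes tested rose and 6 fell, with a median log2 fold change of 0.53 against 0.04 over all genes, where 35.7% of all genes tested were higher and 33.7% lower. At day 1, 13 were higher and 10 lower than in myoblasts (median -0.03), with 31.3% and 32.3% of all genes. From day 1 to myotubes 23 rose and 1 fell (median 0.87), with 19.6% and 16%. Slc2a4, Aldoc, Pgam2 and Pygm were under the count minimum in myoblasts and entered this fit only through groups where they were high. Their calls as higher than in myoblasts follow partly from that filter, and these counts and medians include them. Serum, confluence, transgene and doxycycline changed together with state and cannot be told apart from it.

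Pygm, muscle glycogen phosphorylase, stood at 0.0928, 0.353 and 0.278 CPM in the 3 DMSO myoblast samples, 73.1, 72.4 and 84.6 at day 1 and 151, 162 and 168 in myotubes. Pgam2, the muscle phosphoglycerate mutase, stood at 0.836, 0.141 and 0.278, then 26.8, 30.1 and 32.3 at day 1 and 100.4, 99.4 and 111 CPM in myotubes. In both, all 3 groups lay apart, and the myoblast values rest on 1 to 5 counts for Pygm and 2 to 9 for Pgam2, so their fitted log2 fold changes, 9.29 ± 0.18 and 8.04 ± 0.21, depend on those few counts. Pfkm, the muscle phosphofructokinase, was at 35.7, 34.2 and 37.6 CPM in myoblasts, 148, 153 and 153 at day 1 and 429.7, 447 and 448 in myotubes (log2 fold change 3.66, SE 0.09, adjusted p = 3.88e-24, edgeR). It was already higher at day 1 (2.08 ± 0.09) and rose again from there (1.58 ± 0.08).

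Among glucose transporters, Slc2a1 (GLUT1) fell and recovered, at 48.1, 47.1 and 42.0 CPM in myoblasts, 25.3, 27.7 and 21.3 at day 1 and 35.3, 46.2 and 50.6 in myotubes, so that myotubes and myoblasts did not differ by the test (log2 fold change -0.01 ± 0.10). Slc2a4 (GLUT4), the insulin-responsive transporter, stayed low, at 1.96, 1.81 and 2.27 CPM in myotubes. It was still called higher there and at day 1 than in myoblasts, where it had few counts. Slc2a3 (GLUT3) was under the count minimum in this fit. Pfkfb3, the PFKFB isoform with the strongest kinase activity, followed the same dip, from 11.1, 9.11 and 12.2 CPM in myoblasts to 3.06, 2.01 and 2.39 at day 1 (log2 fold change -2.11, SE 0.28, adjusted p = 1.96e-07, edgeR) and back to 6.18, 11.8 and 13.1 in myotubes (log2 fold change 2.10, SE 0.29, adjusted p = 1.02e-06, edgeR). Slc16a3 (MCT4), the lactate exporter of glycolytic muscle, rose late, with 7.61, 6.08 and 5.38 CPM in myoblasts, 11.2, 8.30 and 10.4 at day 1 and 38.8, 41.0 and 53.2 in myotubes (log2 fold change 2.84, SE 0.20, adjusted p = 1.72e-13). The step from day 1 to myotubes was 2.19 (SE 0.19), against 0.66 (SE 0.20) before it.

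Other members of the same families went the other way. The 6 genes lower in myotubes than in myoblasts were Pfkfb1, Pfkfb4, Pgam1, Eno1, Pkm and Pygb. Pgam1, the ubiquitous mutase, was at 636 ± 16.1 CPM in myoblasts and 401 ± 36.0 in myotubes (n = 3 each, log2 fold change -0.62 ± 0.06), and Pygb, the brain-type phosphorylase, at 72.7 ± 7.36 and 42.3 ± 2.27 (-0.74 ± 0.10). Aldoc and Eno2, isoforms best known from brain, both rose, Aldoc to 4.43, 4.97 and 5.87 CPM and Eno2 to 26.8, 24.0 and 31.4 CPM in myotubes (3.58 ± 0.39 and 2.60 ± 0.20). Gys1, muscle glycogen synthase, rose from 38.3, 32.9 and 32.8 to 177, 179.7 and 193 CPM (2.44 ± 0.07). Slc2a1, Hk1, Pfkfb2, Pfkfb3, Pgk1, Ldha and Slc16a1 did not pass the test between myotubes and myoblasts. At day 1 the largest changes from myoblasts also included Pygm (8.19 ± 0.19), Pgam2 (6.20 ± 0.23), Pfkfb1 (-2.01 ± 0.54) and Aldoc (1.84 ± 0.41), and from day 1 to myotubes they included Slc16a3 (2.19 ± 0.19), Pgam2 (1.83 ± 0.12), Aldoc (1.73 ± 0.33), Hk2 (1.60 ± 0.09) and Eno2 (1.59 ± 0.19), where the myoblast levels of Pygm, Pgam2 and Aldoc rest on few counts.

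To compare levels between isoforms, CPM was divided by the length of the principal GENCODE transcript, and each isoform was given as a share of its family. Pfkm held 25.4 ± 1.09% of phosphofructokinase RNA per kb in myoblasts (n = 3), 58.0 ± 1.64% at day 1 and 72.8 ± 2.02% in myotubes, and Pfkl, the liver type, 46.6 ± 1.56%, 22.8 ± 0.934% and 18.1 ± 2.00%. For glycogen phosphorylase, Pygm went from 0.468 ± 0.290% to 68.5 ± 2.94% and 83.8 ± 1.47%. Pgam2 reached 35.3 ± 1.21% of phosphoglycerate mutase and Eno3, muscle enolase, 69.9 ± 0.798% of enolase, from 47.3 ± 0.855% in myoblasts. Ldha held 99.5 ± 0.109% of lactate dehydrogenase in myoblasts and 97.9 ± 0.0595% in myotubes, with Ldhb as the rest. The enolase shares, that of Eno3 included, are uncertain, since they leave out Eno1b, a near copy of Eno1. Eno1b was counted at 0.725 to 0.898 of the Eno1 CPM over the 96 samples, and reads may be split between them. Counting it with Eno1 would lower the Eno3 shares.

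**Figure D1:**
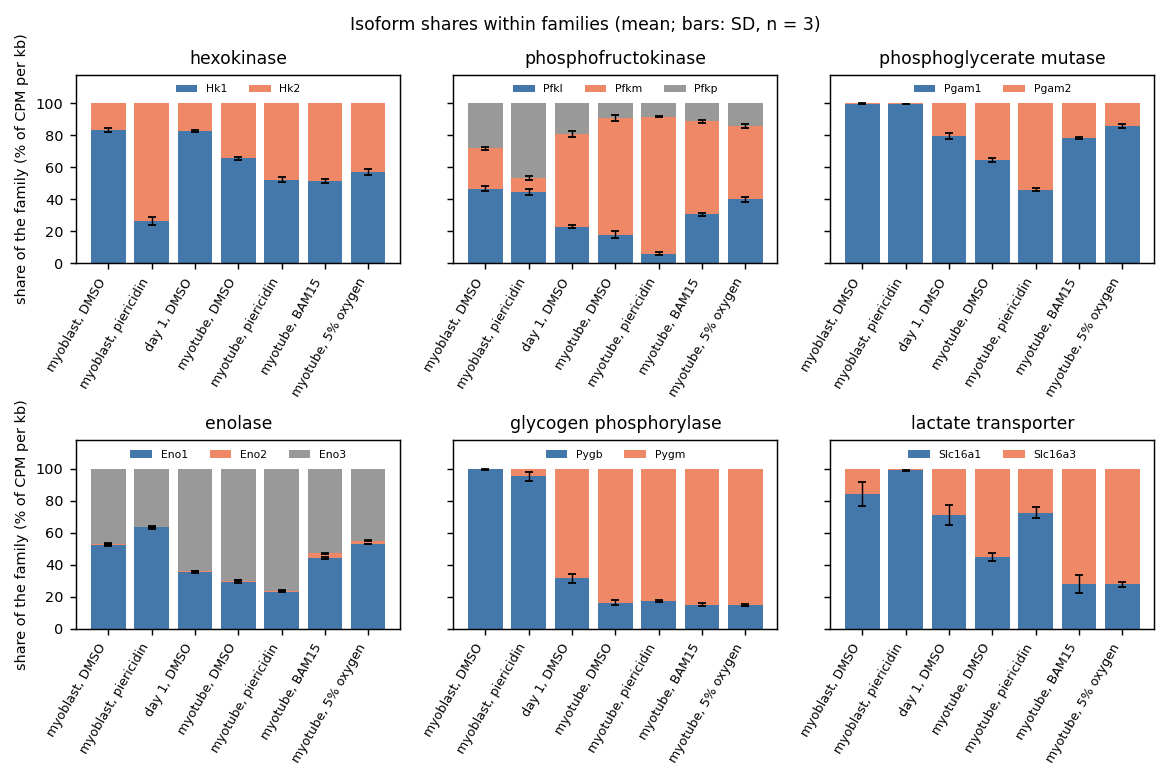
Shares of each isoform in its family, as a percent of CPM per kb (vertical axis), in 7 groups of 3 samples (horizontal axis); stacked bars are means and error bars SD. Pfkm, Pgam2, Eno3 and Pygm take larger shares in myotubes than in myoblasts, Hk2 takes 73.3% of hexokinase in piericidin-treated myoblasts, and Pfkl and Pgam1 take larger shares with BAM15 or 5% oxygen than with DMSO.

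The next question was what each inhibitor did in control (luciferase) myoblasts. The transporter Slc2a1, Hk2 and glycogen synthase Gys1 rose, while Pfkm, Pygb and the lactate exporter Slc16a3 fell. Of 27 genes tested, piericidin raised 6 and lowered 18 (median log2 fold change -0.48), antimycin raised 7 and lowered 13 (median -0.16), and oligomycin raised 6 and lowered 14 (median -0.31). Over all genes, 30.9% rose and 30.8% fell with piericidin, 32.1% and 31.1% with antimycin, and 24.5% and 26.3% with oligomycin, with medians of 0.00, 0.00 and -0.01. Slc2a1, Hk2, Slc16a1 and Gys1 rose with all 3 inhibitors, and Gpi1, Pfkl, Pfkm, Tpi1, Pgam1, Eno3, Pkm, Ldha, Ldhb, Slc16a3 and Pygb fell with all 3. The 3 inhibitors share their DMSO samples. Slc2a3, Slc2a4, Aldoc, Pgam2 and Pygm did not reach the count minimum in myoblasts.

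Hk2, the inducible hexokinase that binds mitochondria, stood at 19.5, 17.7 and 18.6 CPM with DMSO, 102, 105 and 91.3 with piericidin, 179.8, 167 and 167 with antimycin and 102, 88.4 and 81.5 with oligomycin. All treated samples lay above the DMSO samples, and antimycin lay above the other two. The log2 fold changes were 2.45 ± 0.10, 3.25 ± 0.11 and 2.29 ± 0.10 (adjusted p = 1.08e-18, 1.11e-21 and 9.58e-18, edgeR). Hk1, the constitutive isoform, fell with piericidin (62.9 to 24.7 CPM, -1.32 ± 0.08) and oligomycin (-0.65 ± 0.08), and its antimycin value did not pass (-0.13 ± 0.08). Hk2 held 73.3 ± 2.45% of hexokinase RNA per kb with piericidin, 67.6 ± 0.184% with antimycin and 60.6 ± 2.37% with oligomycin, against 16.8 ± 1.10% with DMSO.

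Slc2a1 was at 48.1, 47.1 and 42.0 CPM with DMSO, 147, 133 and 148 with piericidin, 275, 263 and 259 with antimycin and 74.0, 66.3 and 65.7 with oligomycin, 4 groups that did not overlap (1.68 ± 0.08, 2.58 ± 0.08 and 0.60 ± 0.08 on the log2 scale, adjusted p = 1.13e-17, 2.84e-22 and 1.57e-07, edgeR). In this order its level with antimycin was highest and with oligomycin lowest of the treated groups. Gys1 had another order, with 127, 139.7 and 149 CPM for piericidin, 78.8, 97.1 and 79.0 for antimycin and 129, 126 and 128 for oligomycin against 38.3, 32.9 and 32.8 for DMSO (2.04 ± 0.09, 1.34 ± 0.09 and 1.90 ± 0.09). Slc16a1 (MCT1), which carries lactate and pyruvate, varied more between replicates, at 34.7, 77.1 and 53.5 CPM with DMSO and 171, 124 and 163 with piericidin, 187, 159.6 and 170.3 with antimycin and 120.3, 119 and 151 with oligomycin (1.49 ± 0.27, 1.68 ± 0.27 and 1.24 ± 0.27).

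Pfkm fell from 35.7, 34.2 and 37.6 CPM to 5.79, 4.41 and 5.81 with piericidin, 10.6, 11.8 and 14.4 with antimycin and 18.2, 19.5 and 13.1 with oligomycin (-2.71 ± 0.13, -1.51 ± 0.11 and -1.06 ± 0.11, adjusted p = 9.08e-18, 8.12e-13 and 1.17e-09, edgeR). Pfkl fell from 82.6, 90.3 and 87.2 to 34.5, 37.4 and 37.1 CPM with piericidin, 55.5, 47.4 and 47.2 with antimycin and 67.7, 57.2 and 54.3 with oligomycin (-1.22 ± 0.09, -0.75 ± 0.08 and -0.52 ± 0.08). No treated sample of either gene reached its DMSO range. Pfkp, the platelet type, passed the test with piericidin and not with the others (-0.42 ± 0.07, then 0.00 ± 0.07 and 0.15 ± 0.06), and it held 46.9 ± 1.33% of phosphofructokinase per kb with piericidin against 28.1 ± 0.665% with DMSO. Of the PFKFB genes, Pfkfb1, at 3.16, 3.18 and 3.15 CPM with DMSO, fell with piericidin (-2.13 ± 0.50) and antimycin (-2.08 ± 0.49), Pfkfb2 fell with piericidin (-0.63 ± 0.27), Pfkfb4 fell with piericidin (-0.62 ± 0.16) and oligomycin (-1.16 ± 0.17), and Pfkfb3 rose with piericidin (0.43 ± 0.16) and antimycin (0.52 ± 0.16).

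The enzymes from aldolase to pyruvate kinase come next. Aldoa did not pass the test with any inhibitor (-0.02 ± 0.03, 0.07 ± 0.03 and -0.04 ± 0.03). Gapdh fell with piericidin (-0.27 ± 0.08) and stood at -0.16 ± 0.08 and -0.01 ± 0.08 with the others. Pgk1 rose slightly with piericidin and antimycin (0.12 ± 0.03 and 0.11 ± 0.03) and fell with oligomycin (-0.08 ± 0.03), and Eno1 went the opposite way (-0.15 ± 0.03, -0.18 ± 0.03 and 0.19 ± 0.03). Eno3 fell from 786, 793 and 779 to 409, 464 and 460.4 CPM with piericidin, 434, 445 and 402 with antimycin and 712, 757 and 669.7 with oligomycin (-0.79 ± 0.05, -0.84 ± 0.05 and -0.13 ± 0.05). Eno2 rose with antimycin, to 11.6, 18.6 and 15.3 CPM from 4.08, 3.67 and 6.31 (log2 fold change 1.74, SE 0.26, adjusted p = 1.04e-06, edgeR), and did not pass with piericidin or oligomycin.

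At the lactate end, Slc16a3 fell from 7.61, 6.08 and 5.38 CPM to 1.25, 1.10 and 1.06 with piericidin, 1.78, 0.794 and 0.692 with antimycin and 2.16, 1.04 and 1.15 with oligomycin (-2.44 ± 0.27, -2.45 ± 0.27 and -2.10 ± 0.26, adjusted p = 5.7e-09, 4.93e-09 and 4.26e-08, edgeR). Both transporters carry lactate, and they moved in opposite directions, which left Slc16a1 with 98.9 ± 0.179% of the pair per kb with piericidin against 84.1 ± 7.49% with DMSO. Ldha fell by less (-0.60 ± 0.04, -0.63 ± 0.04 and -0.16 ± 0.04). In glycogen breakdown, Pygb fell from 79.7, 65.1 and 73.4 to 14.1, 13.2 and 13.4 CPM with piericidin, 17.9, 18.3 and 20.6 with antimycin and 34.1, 28.1 and 30.3 with oligomycin (-2.39 ± 0.10, -1.90 ± 0.10 and -1.22 ± 0.09), while Gbe1, the branching enzyme, passed the test with oligomycin (0.36 ± 0.13) and not with the others.

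The 3 DMSO libraries of control myoblasts all came from outer wells, as the plate codes in the labels were read, against 0 to 1 of 3 for the inhibitors. With well position in the model, 23, 20 and 19 of these genes were called for piericidin, antimycin and oligomycin. No antimycin library came from an outer well, so the fitted well effect comes from other groups there. That count cannot separate position from treatment. The 4 proliferation markers summed to 901 to 957 CPM with piericidin, 647 to 677 with antimycin and 874 to 912 with oligomycin, below the 1061 to 1109 with DMSO. The luciferase transgene stood at 178 to 189.9 CPM with DMSO, 216 to 272 with piericidin, 83.5 to 108 with antimycin and 94.8 to 132 with oligomycin, and the muscle differentiation markers summed to 554 to 590.0 CPM with antimycin, above DMSO. The myoblast markers summed to 135 to 138 CPM with DMSO, 132 to 134 with piericidin, 264 to 281 with antimycin and 79.4 to 90.2 with oligomycin. The part of these shifts in the results was not tested.

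**Figure D2:**
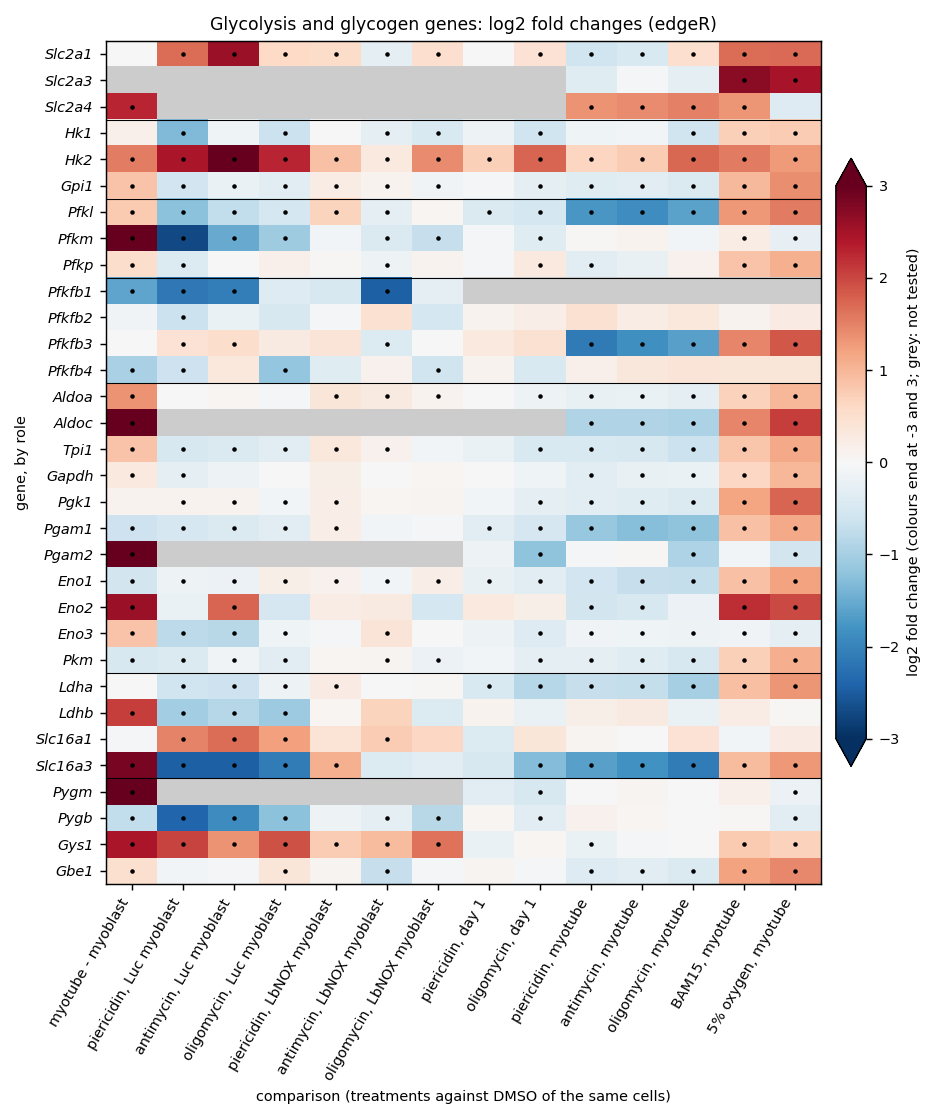
Log2 fold changes from edgeR (colour, red higher and blue lower) of the 32 genes (rows, by role) in 14 comparisons (columns); black dots mark an adjusted p under 0.05 and grey cells were not tested. Hk2 is higher in all 14 columns, while Pfkl and Slc16a3 are blue with inhibitors in control myoblasts and myotubes and red with BAM15 or 5% oxygen.

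Compared directly, the inhibitors differed in these genes. Antimycin was higher than piericidin for 12 and lower for 1 (19.3% and 17.9% of all genes), higher than oligomycin for 9 and lower for 11 (26.1% and 23.9%), and piericidin was higher than oligomycin for 3 and lower for 15 (20% and 19.2%). The antimycin and oligomycin comparison called 20 genes, and 13 to 17 when a replicate number was left out of all groups, with the lowest count without replicate 2. Antimycin exceeded piericidin most at Eno2 (1.93 ± 0.27), Pfkm (1.20 ± 0.14) and Hk1 (1.19 ± 0.08), and it exceeded oligomycin at Eno2 (2.24 ± 0.27), Slc2a1 (1.98 ± 0.08) and Pfkfb4 (1.48 ± 0.17). Piericidin was below oligomycin at Pfkfb1 (-1.74 ± 0.51), Pfkm (-1.65 ± 0.13) and Pygb (-1.16 ± 0.11) and above it at Slc2a1 (1.08 ± 0.08). For Hk2, piericidin and oligomycin differed by 0.16 ± 0.10 on the log2 scale (adjusted p = 0.207, edgeR), which did not pass the test. Antimycin also differed from piericidin at Pfkfb4 (0.94 ± 0.16), Slc2a1 (0.90 ± 0.08) and Hk2 (0.80 ± 0.09) and from oligomycin at Pfkfb1 (-1.69 ± 0.51), Hk2 (0.95 ± 0.09) and Eno3 (-0.71 ± 0.05), and piericidin differed from oligomycin at Pfkl (-0.70 ± 0.09) and Hk1 (-0.67 ± 0.08).

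Myoblasts with NADH-oxidising enzymes were treated to ask what of the response is left when NADH is reoxidised in the cytosol or mitochondria. Each line was first compared with the luciferase line under DMSO. Of 27 genes tested, 1 was higher in LbNOX cells (Slc16a3, 12.3, 14.6 and 10.7 against 7.61, 6.08 and 5.38 CPM, log2 fold change 0.98, SE 0.20, adjusted p = 0.00336, edgeR), 0 in mitoLbNOX and 0 in NDI1 cells, and 0, 0 and 0 were lower. The count in LbNOX cells was 0 to 1 when a replicate number was left out, and 0 without replicate 2 or replicate 3. It was 5 with well position in the model, and 2 without the count filter or with only the groups compared. At an unadjusted p under 0.05 there were 5, 7 and 2 genes, and DESeq2 called 2, 0 and 0. Over all genes, 1.3% were higher and 1.38% lower in LbNOX cells, 0.985% and 0.785% in mitoLbNOX cells, and 2.74% and 1.87% in NDI1 cells. Under DMSO the muscle differentiation markers summed to 331 to 351 CPM in LbNOX, 348 to 395 in mitoLbNOX and 274 to 279 in NDI1 cells, below the 410.4 to 427 of luciferase cells. The myoblast markers, at 112 to 125, 109 to 119 and 115 to 127, were below 135 to 138 as well. The proliferation markers were lower in LbNOX (1025 to 1047 against 1061 to 1109) and mitoLbNOX cells (978 to 1046) and overlapped in NDI1 cells. The part of these differences in the comparisons was not tested.

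With piericidin, no gene fell in any of the 3 lines. LbNOX cells had 12 genes higher and 0 lower than with DMSO (median 0.20, 5.01% and 3.86% of all genes), mitoLbNOX cells 4 and 0 (median 0.03, 6.37% and 4.82%), and NDI1 cells 0 and 0 (median -0.03, 0.00835% and 0%). The mitoLbNOX count of 4 was 2 to 3 when a replicate number was left out, with 2 without replicate 1 or replicate 3, and 7 with the replicate block and 7 with well position in the model. With piericidin the 4 proliferation markers summed to 847 to 948 CPM in LbNOX cells against 1025 to 1047 with DMSO, 838 to 874 against 978 to 1046 in mitoLbNOX cells and 946 to 989 against 1032 to 1100.4 in NDI1 cells. The myoblast markers summed to 101 to 109 CPM in mitoLbNOX cells with piericidin and 110.0 to 111 in NDI1 cells. None of these ranges overlapped DMSO, and their part in these results was not tested. In NDI1 cells edgeR gave 3 genes at an unadjusted p under 0.05, and DESeq2 called 0. The 12 genes that rose in LbNOX cells were Slc2a1, Hk2, Gpi1, Pfkl, Aldoa, Tpi1, Pgk1, Pgam1, Eno1, Ldha, Slc16a3 and Gys1. Hk2 went from 21.3, 20.6 and 20.8 CPM with DMSO to 39.6, 42.3 and 31.7 with piericidin in LbNOX cells (0.88 ± 0.10), from 22.4, 19.5 and 24.9 to 36.96, 35.4 and 40.4 in mitoLbNOX cells (0.78 ± 0.10) and from 19.4 and 20.9 to 28.0 and 21.6 in NDI1 cells (2 samples each, 0.33 ± 0.13). In LbNOX cells Slc16a3 (1.07 ± 0.19), Pfkl (0.67 ± 0.08), Slc2a1 (0.54 ± 0.08) and Aldoa (0.37 ± 0.03) rose too, and in mitoLbNOX cells Gys1 (0.99 ± 0.09), Slc2a1 (0.30 ± 0.08) and Pfkp (0.20 ± 0.06).

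The difference of the piericidin effect from that in luciferase cells was tested as an interaction. The effect differed at 20 genes in LbNOX cells (16 higher and 4 lower, against 22.3% and 22% of all genes). It differed at 20 in mitoLbNOX cells (16 and 4, 21.5% and 21.4%) and at 19 in NDI1 cells (15 and 4, 21.2% and 21.5%). The 3 lines share the luciferase samples. The lower ones were Slc2a1, Hk2, Slc16a1 and Gys1 with LbNOX, Slc2a1, Hk2, Slc16a1 and Gys1 with mitoLbNOX and Slc2a1, Hk2, Pgk1 and Gys1 with NDI1. Slc16a3 showed the largest difference with LbNOX. Piericidin took it from 12.3, 14.6 and 10.7 to 26.3, 25.2 and 26.4 CPM there, where all 3 treated samples lay above DMSO, while in control cells all 3 lay below (difference of log2 fold changes 3.51, SE 0.33, adjusted p = 5.29e-10, edgeR). In mitoLbNOX cells Slc16a3 stood at 8.16, 7.03 and 9.27 CPM with piericidin against 9.19, 10.7 and 8.29 with DMSO, and in NDI1 cells at 6.02 and 6.40 against 10.2 and 7.69.

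Pfkm with piericidin was at 36.95, 34.9 and 31.7 CPM in LbNOX, 32.5, 31.3 and 31.6 in mitoLbNOX and 40.1 and 35.9 in NDI1 cells, against 5.79, 4.41 and 5.81 in luciferase cells. The differences of effect were 2.63 ± 0.16, 2.49 ± 0.16 and 2.65 ± 0.18 (adjusted p = 4.27e-14, 1.76e-13 and 2.51e-13, edgeR). Pfkl differed in the same direction (1.89 ± 0.12, 1.45 ± 0.12 and 1.11 ± 0.13), and in LbNOX cells it rose above its own DMSO level, from 95.4, 98.4 and 87.4 to 148, 142 and 149 CPM. Pygb differed by 2.24 ± 0.14, 2.11 ± 0.14 and 2.32 ± 0.15. For Hk2 the differences were -1.57 ± 0.15, -1.67 ± 0.14 and -2.12 ± 0.17, and for Gys1 -1.28 ± 0.13, -1.05 ± 0.12 and -1.97 ± 0.14. Pfkfb1 differed by 1.65 ± 0.65, 1.90 ± 0.64 and 2.32 ± 0.70 with LbNOX, mitoLbNOX and NDI1, and Slc16a3 by 2.25 ± 0.34 with mitoLbNOX and 1.94 ± 0.38 with NDI1.

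With antimycin, LbNOX cells had 8 genes higher and 10 lower (23.3% and 22.9% of all genes), and mitoLbNOX cells 6 and 9 (24.8% and 22.9%). The LbNOX count of 18 was 8 to 10 when a replicate number was left out, with every replicate number moving it. The LbNOX transgene itself stood at 226 to 319 CPM with antimycin against 871 to 927 with DMSO in LbNOX cells, and at 712 to 846 against 1714 to 1964 in mitoLbNOX cells. The proliferation markers summed to 563 to 600.4 against 1025 to 1047 CPM and to 636 to 674 against 978 to 1046. The muscle differentiation markers were higher, at 441 to 464 against 331 to 351 CPM with LbNOX and 429 to 463 against 348 to 395 with mitoLbNOX. The myoblast markers fell outside their DMSO range in LbNOX cells (62.5 to 77.7 against 112 to 125), and the part of these shifts in the results was not tested. The effect differed from that in luciferase cells at 19 genes with LbNOX (12 higher, 7 lower, against 24.7% and 26.8%) and 15 with mitoLbNOX (11 and 4, 15.4% and 16.3%; 9 to 14 when a replicate number was left out, lowest without replicate 3). Slc2a1 shows the contrast between the lines, at 275, 263 and 259 CPM with antimycin in luciferase cells, 137, 125 and 129 in mitoLbNOX cells and 40.6, 34.7 and 34.2 in LbNOX cells, where it fell from a DMSO level of 47.5, 48.8 and 40.5 CPM with ranges that just overlapped (log2 fold change -0.28, SE 0.08, adjusted p = 0.00477, edgeR). The differences of effect were -2.86 ± 0.11 with LbNOX and -1.02 ± 0.11 with mitoLbNOX. Hk2 was at 23.8, 23.2 and 27.3 CPM in LbNOX and 98.7, 84.8 and 96.5 in mitoLbNOX cells, with differences of -2.96 ± 0.15 and -1.13 ± 0.14. Gys1 still rose with antimycin in both, to 63.7, 60.7 and 60.1 CPM with LbNOX and 120.0, 101 and 110.4 with mitoLbNOX (0.94 ± 0.09 and 1.76 ± 0.09), and Pfkfb1 still fell (-2.45 ± 0.49 and -2.22 ± 0.47). Other large changes with antimycin were Slc16a1 (0.77 ± 0.27), Gbe1 (-0.70 ± 0.14), Pfkm (-0.44 ± 0.10) and Pfkfb3 (-0.42 ± 0.17) in LbNOX cells and Hk2 (2.11 ± 0.10), Slc2a1 (1.56 ± 0.08), Eno2 (1.27 ± 0.26) and Slc16a3 (-0.93 ± 0.21) in mitoLbNOX cells. The effect also differed at Slc16a3 (2.05 ± 0.34), Pygb (1.63 ± 0.13), Ldhb (1.54 ± 0.48) and Eno2 (-1.48 ± 0.37) with LbNOX and at Slc16a3 (1.52 ± 0.36), Pygb (1.23 ± 0.14), Slc16a1 (-1.08 ± 0.38) and Pfkm (0.89 ± 0.15) with mitoLbNOX.

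With oligomycin, LbNOX cells had 5 genes higher and 6 lower (17.5% and 17.7% of all genes), and the effect differed from that in luciferase cells at 8 genes upward and 1 downward (3.8% and 4.18%). This count of 9 was 3 to 6 when a replicate number was left out, with the low values without replicate 2 or replicate 3. The proliferation markers summed to 803 to 865 CPM with oligomycin against 1025 to 1047 with DMSO. The muscle differentiation markers (287 to 300.3 against 331 to 351) and the myoblast markers (76.0 to 86.0 against 112 to 125) were lower too, and their part was not tested. Hk2 still rose, to 56.6, 53.7 and 54.0 CPM, as did Gys1, to 109, 94.7 and 98.3 CPM (1.42 ± 0.10 and 1.64 ± 0.09), and Pygb and Pfkm still fell (-0.84 ± 0.09 and -0.69 ± 0.11). Slc16a3 showed the largest difference of effect (difference of log2 fold changes 1.76, SE 0.33, adjusted p = 0.000566, edgeR), and the one gene with a lower effect was Hk2 (-0.88 ± 0.14). Changes in LbNOX cells also included Pfkfb4 (-0.59 ± 0.16) and Slc2a1 (0.51 ± 0.08), and differences of effect Pfkl (0.59 ± 0.12), Pgam1 (0.27 ± 0.06), Tpi1 (0.25 ± 0.05) and Gpi1 (0.25 ± 0.06).

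**Figure D3:**
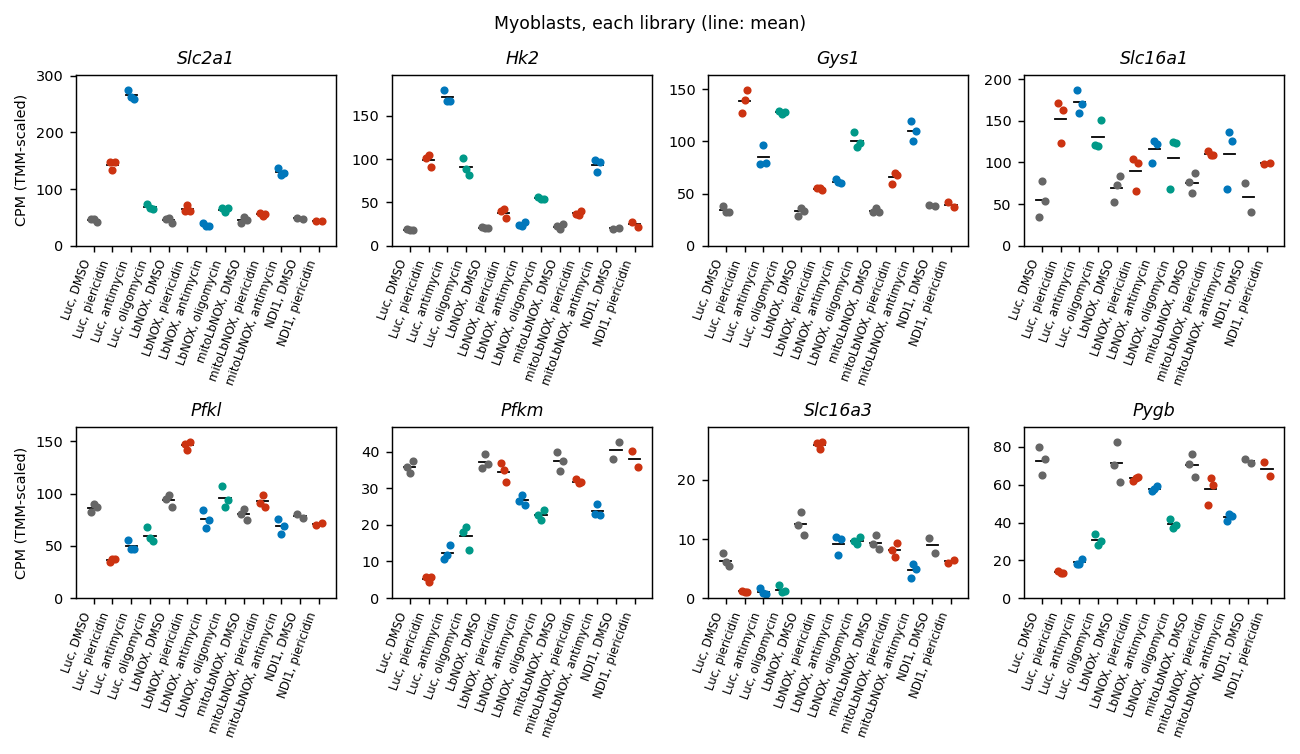
TMM-scaled CPM (vertical axis, from 0) of 8 genes in each myoblast library (points; horizontal lines are group means) by transgene and treatment (horizontal axis). Slc2a1 and Hk2 are highest in antimycin-treated luciferase cells, with means of 266 and 171 CPM, and Slc16a3 is highest in LbNOX cells with piericidin, with a mean of 26.0 CPM.

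Chloramphenicol for 48 hr was compared with its own 48 hr DMSO samples, with 2 samples per group. In luciferase myoblasts 5 of 27 genes rose and 5 fell (4.83% and 3.62% of all genes), in LbNOX myoblasts 5 rose and 1 fell (0.675% and 0.256%), and the effects differed at 3 genes upward and 0 downward (0.0769% and 0.453%). The genes that rose in luciferase cells were Slc2a1, Hk2, Pfkp, Gys1 and Gbe1, and those that fell were Tpi1, Pgam1, Eno3, Ldha and Slc16a3. Hk2 was at 24.1 and 21.1 CPM with DMSO and 46.3 and 40.6 with chloramphenicol (log2 fold change 1.00, SE 0.12, adjusted p = 0.00162, edgeR), Gys1 at 35.6 and 36.0 with DMSO and 61.8 and 53.7 with chloramphenicol (0.74 ± 0.10), and Gbe1 at 15.6 and 17.9 and then 32.3 and 31.0 (0.97 ± 0.13). In LbNOX cells Hk2 still rose (0.73 ± 0.13), and Pfkl rose from 96.3 and 101 to 137 and 135 CPM (0.49 ± 0.07). The genes whose effects differed were Pfkl (0.72 ± 0.10), Ldha (0.56 ± 0.05) and Tpi1 (0.35 ± 0.06). With a replicate block only Ldha was still called among them (adjusted p = 0.0163, edgeR), while Pfkl and Tpi1 lost their calls (adjusted p = 0.0569 and 0.0738), and without the count filter 12 genes were called. The other counts depended on the fit too, with 5 genes called in luciferase cells when they were modelled alone and, in LbNOX cells, 1 with a replicate block and 12 without the count filter. The proliferation markers summed to 931 to 937 CPM with chloramphenicol against 1037 to 1133 with DMSO in luciferase cells and to 987 to 1029 against 1037 to 1057 in LbNOX cells. In luciferase cells the muscle differentiation markers (391 to 419 against 451 to 460.4) and the luciferase transgene (79.0 to 114 against 133 to 166) were lower without overlap. The myoblast markers were just below their DMSO range in luciferase (145 to 148 against 149 to 154) and LbNOX cells (109 to 113 against 114 to 140.4), and the part of these shifts was not tested. Luciferase cells also changed at Slc16a3 (-0.96 ± 0.23), Eno3 (-0.52 ± 0.05) and Slc2a1 (0.45 ± 0.11) and LbNOX cells at Eno3 (-0.29 ± 0.05), Gpi1 (0.26 ± 0.04), Aldoa (0.21 ± 0.04) and Ldha (0.20 ± 0.04).

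Post-mitotic cells 1 day after the switch to low serum were asked the same with piericidin and oligomycin. Oligomycin raised 3 and lowered 16 of 28 genes (median -0.28, 10.6% and 10.1% of all genes), and piericidin raised 1 and lowered 4 (median -0.07, 1.39% and 1.36%). The piericidin count of 5 was 1 to 2 when a replicate number was left out, with each of the 3 moving it. The proliferation markers summed to 179 to 200.3 CPM with DMSO, 159.6 to 169.7 with piericidin and 147 to 160.1 with oligomycin, lower without overlap in both treated groups. The muscle differentiation markers were lower with oligomycin (12329.8 to 12614 against 12655 to 13312), and the myoblast markers higher with piericidin (252 to 267 against 224 to 239). Their part in these results was not tested. Hk2 was at 15.9, 19.8 and 17.2 CPM with DMSO, 30.2, 25.5 and 30.4 with piericidin and 60.7, 58.1 and 55.7 with oligomycin (0.71 ± 0.10 and 1.75 ± 0.10, adjusted p = 0.00456 and 2.95e-07, edgeR), 3 groups that did not overlap. Ldha fell with both, from 622, 645 and 658 CPM to 467, 453 and 482 with piericidin and 351, 339 and 360.2 with oligomycin (-0.45 ± 0.04 and -0.85 ± 0.04). With oligomycin Slc16a3 fell from 11.2, 8.30 and 10.4 to 3.88, 3.64 and 4.37 CPM (-1.30 ± 0.19) and Pgam2 from 26.8, 30.1 and 32.3 to 13.4, 12.8 and 11.7 (-1.21 ± 0.10). Hk1 (-0.59 ± 0.08) and Pfkl (-0.53 ± 0.09) also fell with oligomycin. Piericidin also changed Pfkl (-0.44 ± 0.09), Pgam1 (-0.33 ± 0.06) and Eno1 (-0.23 ± 0.04).

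In untransduced myotubes the inhibitors lowered glycolytic genes together, in all 3 treatments. Of 31 genes tested, piericidin lowered 19 and raised 2 (median -0.31), antimycin lowered 17 and raised 2 (median -0.23), and oligomycin lowered 17 and raised 3 (median -0.26). Over all genes the shares lower and higher were 4.84% and 4.15% with piericidin, 6.27% and 6.64% with antimycin, and 16.4% and 16.9% with oligomycin. The 15 genes lower in all 3 were Gpi1, Pfkl, Pfkfb3, Aldoa, Aldoc, Tpi1, Gapdh, Pgk1, Pgam1, Eno1, Eno3, Pkm, Ldha, Slc16a3 and Gbe1, and Hk2 and Slc2a4 were higher in all 3. The 3 inhibitors share their DMSO samples, and 1 of the 32 genes, Pfkfb1, was under the count minimum. The muscle differentiation markers summed to 15625 to 16915 CPM over the 3 inhibitors against 14880.4 to 15233 with DMSO, and the proliferation markers to 90.9 to 99.1 with antimycin against 101 to 125. The myoblast markers summed to 177 to 188 with piericidin against 165 to 172. Their part in these results was not tested.

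Pfkl stood at 131, 133 and 170.4 CPM with DMSO, 45.5, 40.3 and 42.9 with piericidin, 37.6, 38.8 and 42.1 with antimycin and 51.4, 47.6 and 43.5 with oligomycin (-1.75 ± 0.08, -1.87 ± 0.08 and -1.60 ± 0.08, adjusted p = 1.81e-13, 4.02e-14 and 3.2e-14, edgeR). Pfkm, more abundant per kb, did not pass the test with any of them (429.7, 447 and 448 CPM with DMSO and 419, 473 and 469 with piericidin, 496, 475 and 445 with antimycin and 422, 423 and 411 with oligomycin), and the Pfkl share of phosphofructokinase per kb went from 18.1 ± 2.00% to 6.17 ± 0.773%, 5.49 ± 0.601% and 6.99 ± 0.445%. Phosphoglycerate mutase was split in the same way. Pgam1 fell from 366, 401 and 438 to 181, 184 and 183 CPM with piericidin, 165, 158 and 171 with antimycin and 181, 173 and 166 with oligomycin (-1.13 ± 0.05, -1.28 ± 0.05 and -1.21 ± 0.05), while Pgam2 was at 97.1, 106 and 99.1 CPM with piericidin and 106, 103 and 107 with antimycin against 100.4, 99.4 and 111 with DMSO, and fell with oligomycin, to 52.5, 50.9 and 60.5 (log2 fold change -0.92, SE 0.07, adjusted p = 2.65e-10, edgeR). Pygm did not pass the test with any inhibitor (0.02 ± 0.06, 0.09 ± 0.06 and -0.01 ± 0.06), and Eno3 and Eno1 both fell (-0.11 ± 0.03, -0.14 ± 0.03 and -0.15 ± 0.03 for Eno3 and -0.58 ± 0.04, -0.70 ± 0.04 and -0.72 ± 0.04 for Eno1). This grouping by isoform was made after the values were seen and has no test of its own.

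Slc16a3 fell from 38.8, 41.0 and 53.2 to 14.9, 11.9 and 16.1 CPM with piericidin, 13.9, 12.4 and 11.1 with antimycin and 11.7, 9.86 and 9.46 with oligomycin (-1.63 ± 0.12, -1.81 ± 0.11 and -2.09 ± 0.12, adjusted p = 4.94e-10, 3.4e-11 and 5.11e-13, edgeR). Pfkfb3 fell from 6.18, 11.8 and 13.1 to 0.643, 3.25 and 2.64 CPM with piericidin, 2.83, 3.18 and 2.52 with antimycin and 3.35, 3.82 and 2.87 with oligomycin (-2.13 ± 0.27, -1.84 ± 0.25 and -1.62 ± 0.24). In both genes every treated sample lay below every DMSO sample. Ldha fell from 1180.4 ± 84.1 CPM to 729.6 ± 42.9, 717 ± 10.4 and 592 ± 13.2 (n = 3 each, -0.69 ± 0.04, -0.71 ± 0.04 and -0.99 ± 0.04), and Aldoc, from 5.09 CPM, changed by -0.91 ± 0.19, -0.90 ± 0.19 and -0.95 ± 0.19.

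Hk2 rose to 82.9, 85.2 and 77.9 CPM with piericidin, 93.1, 87.1 and 84.3 with antimycin and 181, 163 and 177 with oligomycin, from 49.7, 48.8 and 58.4 (0.65 ± 0.09, 0.76 ± 0.09 and 1.73 ± 0.09, adjusted p = 2.77e-05, 1.44e-06 and 1.23e-13, edgeR). Slc2a4 rose from 1.96, 1.81 and 2.27 to 4.82, 5.39 and 5.10 CPM with piericidin, 5.58, 4.81 and 5.59 with antimycin and 5.77, 5.35 and 6.02 with oligomycin (1.35 ± 0.19, 1.41 ± 0.19 and 1.504 ± 0.19), levels that stay low. Slc2a1 differed by inhibitor. It fell to 30.4, 27.7 and 29.1 CPM with piericidin and 32.96, 31.8 and 31.1 with antimycin (-0.60 ± 0.10 and -0.45 ± 0.10), and rose with oligomycin, to 63.3, 63.1 and 62.1 (0.51 ± 0.09), from 35.3, 46.2 and 50.6 with DMSO. Slc16a1, Ldhb and Pygb did not pass the test with any inhibitor.

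Whether the inhibitor effects differ between myotubes and control myoblasts was tested as an interaction. Of 31 genes, the effect was higher in myotubes for 11 and lower for 10 with piericidin (25.2% and 21.3% of all genes), 5 and 12 with antimycin (25.4% and 22.5%), and 5 and 12 with oligomycin (15.8% and 13.2%). Pfkm and Pygb, which fell in myoblasts, had higher effects in myotubes (2.80 ± 0.14 and 2.56 ± 0.15 with piericidin, 1.66 ± 0.13 and 2.01 ± 0.14 with antimycin, 0.98 ± 0.13 and 1.21 ± 0.14 with oligomycin). Slc2a1 and Gys1, which rose in myoblasts, had lower ones with piericidin and antimycin, and with oligomycin only the Gys1 difference passed (-2.23 ± 0.14 and -2.18 ± 0.10 with piericidin, -2.99 ± 0.14 and -1.34 ± 0.10 with antimycin, and for oligomycin -0.08 ± 0.13 and -1.92 ± 0.10). Pfkfb3 rose in myoblasts with piericidin and antimycin and fell in myotubes, and the difference passed the test for all 3 inhibitors (-2.53 ± 0.39, -2.32 ± 0.37 and -1.90 ± 0.37, adjusted p = 4.04e-06, 8.57e-06 and 0.000271, edgeR). For Hk2, which rose in both states, the effect was smaller in myotubes with all 3 (-1.75 ± 0.12, -2.44 ± 0.12 and -0.56 ± 0.12). The fitted differences at Slc2a4 were 4.48 ± 0.99 with piericidin, 2.85 ± 0.81 with antimycin and 3.10 ± 0.81 with oligomycin. In control myoblasts Slc2a4 had 2 to 9 counts per sample with DMSO, 0 to 1 with piericidin, 1 to 2 with antimycin and 0 to 3 with oligomycin. These values depend on very few counts. Slc2a4 entered this fit only through groups where it was high, so its place among the genes with a higher effect in myotubes follows partly from that filter. Without replicate 2 the antimycin and oligomycin differences did not pass (adjusted p = 0.0932 and 0.17, edgeR), and without replicate 1 the piericidin difference was 6.83. The effects also differed at Eno2 (-2.17 ± 0.28) with antimycin and at Pfkfb4 (1.54 ± 0.23) and Pfkl (-1.08 ± 0.14) with oligomycin.

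With BAM15 and at 5% oxygen most genes of the pathway were higher in myotubes. BAM15 raised 23 and lowered 1 of 31 genes (median 0.85 against 0.02 over all genes, of which 13.2% rose and 12.2% fell). At 5% oxygen 21 rose and 5 fell (median 1.09 against 0.02, with 12.3% and 9.78% of all genes). Both are read against the same DMSO samples. Both counts include Slc2a3, which passed the count minimum only through groups where it was high, so its rise follows partly from that filter. The 4 proliferation markers summed to 21.1 to 23.9 CPM at 5% oxygen, below the 101 to 125 with DMSO, all 4 being lower, and their part in the result was not tested. With BAM15 they summed to 91.1 to 114, which overlapped DMSO. The muscle differentiation markers summed to 16635 to 17469.7 CPM with BAM15 and 15844 to 16273 at 5% oxygen, above DMSO, and the myoblast markers to 145 to 149.7 and 146 to 152, below it.

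In glucose uptake, Slc2a1 rose from 35.3, 46.2 and 50.6 CPM to 137, 146 and 137 with BAM15 and 129, 146 and 155 at 5% oxygen (1.68 ± 0.09 and 1.70 ± 0.09, adjusted p = 9.34e-13 and 4.75e-13, edgeR). Slc2a3, at 0.206, 0.633 and 0.568 CPM, rose to 2.87, 3.34 and 3.20 CPM with BAM15 and 2.11, 1.70 and 4.21 at 5% oxygen (2.70 ± 0.52 and 2.47 ± 0.53), which rests on 2 to 7 counts per sample with DMSO, 31 to 41 with BAM15 and 18 to 48 at 5% oxygen. It passed the count minimum through the groups where it was high, and the fitted values depend on the few DMSO counts. Slc2a4 rose with BAM15, to 4.44, 5.38 and 5.19 CPM (1.32 ± 0.19), and stood at 1.37, 1.80 and 1.40 at 5% oxygen, which did not pass (-0.40 ± 0.21). Hk2 rose to 144, 162 and 153 CPM with BAM15 and 136, 126 and 120.3 at 5% oxygen from 49.7, 48.8 and 58.4. The Hk2 changes were 1.56 ± 0.09 and 1.28 ± 0.09.

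Pfkl rose from 131, 133 and 170.4 CPM to 345, 366 and 353 with BAM15 and 432, 412 and 442 at 5% oxygen (1.30 ± 0.07 and 1.57 ± 0.07, adjusted p = 1.69e-12 and 3.34e-14, edgeR), and its share of phosphofructokinase per kb to 30.6 ± 0.843% and 40.1 ± 1.57%. Pfkm moved by 0.22 ± 0.05 and -0.26 ± 0.05, lower at 5% oxygen. Pfkfb3 rose from 6.18, 11.8 and 13.1 to 27.8, 28.1 and 30.7 CPM with BAM15 and 38.3, 38.7 and 37.02 at 5% oxygen (1.47 ± 0.20 and 1.87 ± 0.20), while Pfkfb2 and Pfkfb4 did not pass with either.

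Among the lower enzymes, Pgk1 was at 699, 759 and 872 CPM with DMSO, 1669.9, 1826 and 1776 with BAM15 and 2620.4, 2611 and 2588 at 5% oxygen (1.19 ± 0.06 and 1.75 ± 0.06, adjusted p = 5.06e-13 and 2.31e-16, edgeR). Eno2 rose from 26.8, 24.0 and 31.4 to 120.4, 133 and 128 CPM with BAM15 and 112, 103 and 111 at 5% oxygen (2.22 ± 0.10 and 1.98 ± 0.10), and Aldoc from 4.43, 4.97 and 5.87 to 14.3, 13.5 and 14.2 CPM with BAM15 and 21.1, 24.1 and 19.7 at 5% oxygen (1.46 ± 0.16 and 2.08 ± 0.16). Gapdh, Tpi1, Aldoa, Pgam1, Eno1 and Pkm rose by 0.63 to 0.89 on the log2 scale with BAM15 and 0.99 to 1.21 at 5% oxygen. The muscle isoforms Pgam2 and Eno3 fell. Pgam2 went from 100.4, 99.4 and 111 CPM to 66.4, 78.9 and 65.3 at 5% oxygen (log2 fold change -0.56, SE 0.07, adjusted p = 1.34e-06) and Eno3 from 1385, 1348 and 1430.4 to 1146, 1161 and 1151 (log2 fold change -0.27, SE 0.03, adjusted p = 3.36e-08). The 5 genes that fell at 5% oxygen were Pfkm, Pgam2, Eno3, Pygm and Pygb, and the gene that fell with BAM15 was Eno3.

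For lactate, Ldha rose to 2181 ± 68.9 CPM with BAM15 and 2948 ± 24.1 at 5% oxygen from 1180.4 ± 84.1 (n = 3 each, 0.89 ± 0.04 and 1.32 ± 0.04), and Slc16a3 to 81.1, 90.5 and 85.9 CPM with BAM15 and 112, 109 and 109 at 5% oxygen from 38.8, 41.0 and 53.2 (0.96 ± 0.10 and 1.31 ± 0.10). Ldhb and Slc16a1 did not pass with either. For glycogen, Gys1 (0.80 ± 0.06 and 0.70 ± 0.06) and Gbe1 (1.21 ± 0.09 and 1.44 ± 0.09) rose with both. Of the genes matched to promoters, 9 of 14 with ACGTG and 11 of 15 tested without it rose at 5% oxygen, and 10 of 14 and 11 of 15 rose with BAM15.

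The same treatments were added to oligomycin. With BAM15 added, 22 of 31 genes were higher and 0 lower than with oligomycin alone (median 0.93, 12% and 14.1% of all genes), and with oligomycin at 5% oxygen 22 were higher and 5 lower (median 0.97, 16.7% and 16.5%). Piericidin added to oligomycin raised 8 and lowered 3 (median 0.05, 8.46% and 12.4%). This last count of 11 was 5 to 10 when a replicate number was left out, lower without replicate 2 or replicate 3. All 3 comparisons share the oligomycin samples. The higher counts with BAM15 and at 5% oxygen include Slc2a3, which passed the count minimum only through groups where it was high. The proliferation markers summed to 111 to 121 CPM with oligomycin, 96.7 to 110.6 with BAM15 added and 23.9 to 25.4 at 5% oxygen. At 5% oxygen the muscle differentiation markers were lower (15691 to 16091.5 against 16464 to 16914). The myoblast markers summed to 144 to 155 with BAM15 added and 176 to 180.2 at 5% oxygen, against 156 to 170.2 with oligomycin alone. The part of these shifts was not tested, and with piericidin added the 3 lists overlapped oligomycin alone. Slc16a3, at 11.7, 9.86 and 9.46 CPM with oligomycin, reached 75.1, 87.1 and 83.2 with BAM15 and 87.9, 90.0 and 87.0 at 5% oxygen (2.98 ± 0.12 and 3.11 ± 0.12, adjusted p = 5.27e-16 and 1.49e-16, edgeR), and stood at 11.3, 12.4 and 13.2 with piericidin. Pfkl went from 51.4, 47.6 and 43.5 to 326, 329.9 and 331 CPM with BAM15 and 299.6, 297 and 309.7 at 5% oxygen (2.79 ± 0.08 and 2.68 ± 0.08). Both genes were above their DMSO range in the combined treatments. Piericidin lowered Slc2a1 from 63.3, 63.1 and 62.1 CPM with oligomycin to 33.4, 26.5 and 32.2 (-1.04 ± 0.10) and Hk2 from 181, 163 and 177 to 92.98, 87.2 and 97.5 (-0.91 ± 0.09), and raised Pgam2 from 52.5, 50.9 and 60.5 to 91.5, 99.1 and 95.0 (0.80 ± 0.07). Piericidin added to oligomycin also changed Aldoc (0.55 ± 0.19), Hk1 (0.47 ± 0.07) and Pfkp (-0.33 ± 0.08), BAM15 Slc2a3 (2.08 ± 0.56, from 4 to 5 counts per sample with oligomycin) and Pgam1 (1.94 ± 0.05), while 5% oxygen changed Pfkfb3 (2.97 ± 0.23), Aldoc (2.48 ± 0.18), Slc2a3 (2.197 ± 0.56) and Pgam1 (1.99 ± 0.05).

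Within 5% oxygen, oligomycin raised 1 gene and lowered 17 (median -0.36, 2.04% and 2.22% of all genes). Slc2a4 was the gene that rose (0.85 ± 0.21), and the falls included Gbe1 (-0.79 ± 0.08), Aldoc (-0.56 ± 0.15), Pfkl (-0.49 ± 0.07) and Eno2 (-0.46 ± 0.09). Pfkl went from 432, 412 and 442 to 299.6, 297 and 309.7 CPM there, and Hk2 from 136, 126 and 120.3 to 135, 119.9 and 113, which did not pass the test (-0.04 ± 0.09). The myoblast markers summed to 176 to 180.2 CPM with oligomycin against 146 to 152 without it. The proliferation markers, whose ranges are given above, were also slightly higher with oligomycin. The part of these shifts was not tested. Whether these effects of oligomycin differ from those without 5% oxygen was not tested. Slc2a1 fell as well (-0.42 ± 0.09).

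**Figure D4:**
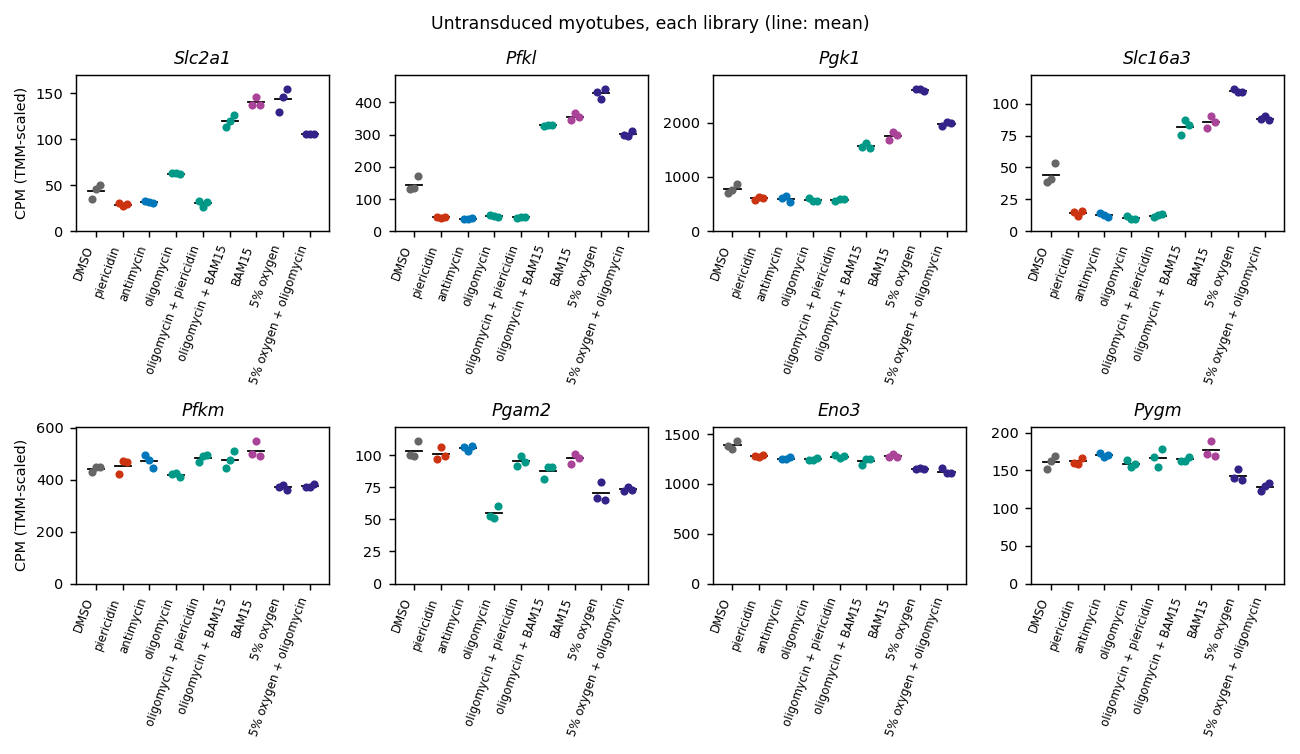
TMM-scaled CPM (vertical axis, from 0) of 8 genes in each untransduced myotube library (points; horizontal lines are group means) by treatment (horizontal axis). Slc2a1, Pfkl, Pgk1 and Slc16a3 are highest with BAM15 or at 5% oxygen, with and without oligomycin, while Pfkm, Pgam2, Eno3 and Pygm lie below their BAM15 range at 5% oxygen.

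Adenovirus-transduced myotubes were used to ask whether LbNOX changes these effects in differentiated cells, with 2 samples per GFP group and 3 per LbNOX group. Piericidin raised 2 and lowered 11 of 30 genes in GFP myotubes (1.37% and 1.72% of all genes), and raised 3 and lowered 16 in LbNOX myotubes (3.24% and 3.54%). Oligomycin raised 4 and lowered 15 in GFP (13.8% and 12.1%) and raised 3 and lowered 20 in LbNOX myotubes (16.6% and 15.4%). When a replicate number was left out, the piericidin count of 13 in GFP cells was 6 to 14, with 6 and 7 without replicate 1 and replicate 2, where each GFP group kept 1 sample that is assumed to vary like the LbNOX groups, and the 19 in LbNOX cells was 10 to 15, lowest without replicate 2. Pfkl was at 178 and 175 CPM in GFP myotubes with DMSO, 53.9 and 53.1 with piericidin and 44.3 and 45.9 with oligomycin (-1.72 ± 0.10 and -1.98 ± 0.10, adjusted p = 3.15e-07 and 3.59e-09, edgeR), and in LbNOX myotubes at 223, 233 and 182 with DMSO, 71.5, 69.2 and 60.8 with piericidin and 60.3, 59.4 and 60.3 with oligomycin (-1.67 ± 0.08 and -1.84 ± 0.08). Slc16a3 fell in GFP myotubes from 40.2 and 47.4 CPM to 15.4 and 13.5 with piericidin and 7.89 and 8.66 with oligomycin, and in LbNOX myotubes from 55.0, 56.2 and 50.7 to 17.9, 18.2 and 14.8 with piericidin and 10.6, 10.9 and 10.3 with oligomycin. For both genes, inhibitor and DMSO samples did not overlap in either kind of myotube. The transgene counts, eGFP included, summed to 7122 to 7589 CPM with DMSO, 6160.2 to 6164 with piericidin and 8649 to 9052 with oligomycin in GFP myotubes. In LbNOX myotubes the sums were 9702 to 10176, 7755 to 8304 and 14592.5 to 14852. In GFP myotubes the muscle differentiation markers summed to 13833 to 14424.5 CPM with DMSO, 15626 to 16637 with piericidin and 14865 to 15205 with oligomycin. In LbNOX myotubes they summed to 13851 to 14524, 16119 to 16979 and 14542 to 15177, so both inhibitors lay above DMSO in either kind. The myoblast markers were lower with oligomycin, at 121 to 132 against 163 to 179 in GFP and 122 to 124 against 163 to 168 in LbNOX myotubes, and higher with piericidin in LbNOX myotubes (169 to 189). The proliferation markers were lower in GFP myotubes, at 89.5 to 93.8 with piericidin and 89.6 to 92.6 with oligomycin against 98.6 to 98.7. The part of these shifts was not tested.

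Hk2 rose with oligomycin in both, from 54.3 and 55.5 to 155 and 155 CPM in GFP and from 77.1, 72.7 and 67.0 to 159, 165 and 172 in LbNOX myotubes (1.48 ± 0.07 and 1.18 ± 0.06), and Slc2a4 rose with piericidin in both (1.40 ± 0.23 and 1.01 ± 0.19). For the difference between LbNOX and GFP, the interaction test of edgeR called 0 genes with piericidin (0% and 0% of all genes) and 0 with oligomycin (0% and 0%), with 2 and 2 at an unadjusted p under 0.05 and 0 and 0 in DESeq2. For Pfkl these differences were 0.05 ± 0.13 and 0.14 ± 0.13, and for Slc16a3 -0.07 ± 0.16 and 0.05 ± 0.17. Under DMSO, LbNOX and GFP myotubes differed at 0 genes in edgeR (0.0161% of all genes higher and 0.00807% lower), with 13 at an unadjusted p under 0.05 and 1 in DESeq2. A p that misses the threshold does not show equal effects, and the GFP groups had 2 samples each. Other large changes were Slc16a3 (-1.61 ± 0.13), Pgam1 (-1.34 ± 0.05), Slc2a1 (-1.10 ± 0.10) and Eno1 (-0.65 ± 0.06) with piericidin and Pfkfb3 (-2.49 ± 0.49), Slc16a3 (-2.41 ± 0.13), Pgam1 (-1.26 ± 0.05) and Aldoc (-1.16 ± 0.33) with oligomycin in GFP myotubes. In LbNOX myotubes they were Pfkfb3 (-2.21 ± 0.37), Slc16a3 (-1.68 ± 0.10), Pgam1 (-1.26 ± 0.04) and Slc2a1 (-1.18 ± 0.08) with piericidin and Slc16a3 (-2.36 ± 0.11), Pfkfb3 (-2.36 ± 0.37), Pgam1 (-1.37 ± 0.04) and Ldha (-1.05 ± 0.06) with oligomycin.

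**Figure D5:**
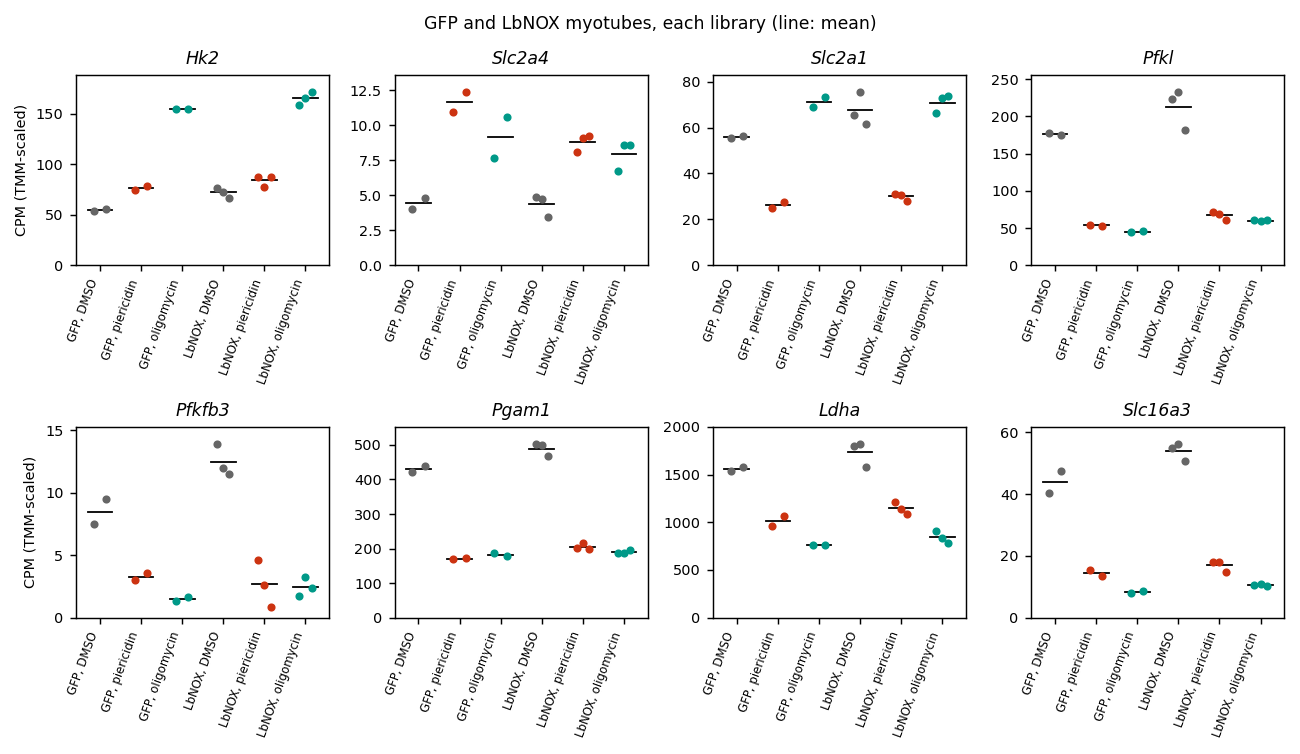
TMM-scaled CPM (vertical axis, from 0) of 8 genes in each GFP (n = 2) or LbNOX (n = 3) myotube library (points; horizontal lines are group means) by treatment (horizontal axis). Pfkl, Pgam1, Ldha and Slc16a3 are lower with both inhibitors than with DMSO in GFP and in LbNOX myotubes.

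A list of 45 other genes of these pathways was read beside the 32. In control myoblasts 5 higher and 9 lower of 21 tested passed with piericidin, 5 higher and 8 lower of 21 tested with antimycin and 6 higher and 8 lower of 21 tested with oligomycin, against all-gene shares of 30.9% and 30.8%, 32.1% and 31.1%, and 24.5% and 26.3%. The median log2 fold changes of the list were -0.08, -0.23 and -0.24. Stbd1, which binds glycogen, rose from 4.64, 9.75 and 5.38 to 179.8, 65.6 and 262 CPM with piericidin, 149, 72.4 and 198 with antimycin and 59.9, 74.9 and 153 with oligomycin, with a wide spread between replicates (4.68 ± 0.71, 4.41 ± 0.70 and 3.84 ± 0.70, adjusted p = 1.26e-06, 2.82e-06 and 2.97e-05, edgeR). Bpgm, bisphosphoglycerate mutase, fell with all 3 (-1.40 ± 0.18, -1.97 ± 0.19 and -1.69 ± 0.18), as did Phka2, a phosphorylase kinase subunit (-1.69 ± 0.17, -0.99 ± 0.16 and -1.12 ± 0.16), and Adpgk, ADP-dependent glucokinase, rose with all 3 (0.96 ± 0.17, 0.99 ± 0.17 and 1.13 ± 0.17). In myotubes 1 higher and 2 lower of 25 tested passed with piericidin, 4 higher and 3 lower of 25 tested with antimycin, 4 higher and 5 lower of 25 tested with oligomycin, 10 higher and 0 lower of 25 tested with BAM15 and 8 higher and 2 lower of 25 tested at 5% oxygen. Over all genes the shares higher and lower were 4.15% and 4.84% with piericidin, 6.64% and 6.27% with antimycin, 16.9% and 16.4% with oligomycin, 13.2% and 12.2% with BAM15 and 12.3% and 9.78% at 5% oxygen. The piericidin and oligomycin counts of this list lie near these shares. Its median log2 fold changes were 0.02, 0.05, -0.03, 0.11 and 0.07 in the same order. Ppp1r3b and Ppp1r3c are subunits that bring protein phosphatase to glycogen. Ppp1r3b rose from 1.96, 0.994 and 2.08 CPM to 9.90, 11.6 and 12.9 with BAM15 and 9.70, 12.9 and 7.72 at 5% oxygen (2.59 ± 0.40 at 5% oxygen). Ppp1r3c rose from 5.04, 7.23 and 6.34 CPM to 16.6, 21.4 and 19.6 with BAM15 and 21.0, 21.2 and 22.7 at 5% oxygen (1.79 ± 0.17 at 5% oxygen). Pygl, liver phosphorylase, rose with both from 0 to 8 counts per DMSO sample (2.02 ± 0.61 and 2.45 ± 0.60). It was under the count minimum with DMSO and entered the fit, and these counts, only through groups where it was high. Its fitted values depend on the few DMSO counts. Gyg, the glycogenin primer of glycogen, rose with oligomycin from 143, 146 and 154 to 304, 309 and 322 CPM (1.08 ± 0.05). Between myoblasts and myotubes 13 were higher and 5 lower of 22 tested (median 0.59, against 35.7% and 33.7% of all genes), with Ppp1r3a, the muscle glycogen-targeting subunit, at 0 counts in all 3 myoblast samples and 9.78, 10.8 and 7.76 CPM in myotubes. Ppp1r3a is among the 13 and entered the fit only through myotubes.

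The other pathway genes with the largest changes, up to 3 per comparison and at least 1 on the log2 scale, follow by comparison. Between states they were Ppp1r3a (3.95 ± 1.18), Ppp1r3c (2.71 ± 0.48) and Tigar (-1.72 ± 0.21) at day 1, Ppp1r3a (5.71 ± 0.41), Stbd1 (2.00 ± 0.50) and Ppp1r3c (1.73 ± 0.35) from day 1 to myotubes, and Ppp1r3a (9.66 ± 0.62), Ppp1r3c (4.44 ± 0.45) and Stbd1 (2.34 ± 0.52) between myoblasts and myotubes. The fitted Ppp1r3a values against myoblasts, where it had 0 counts, depend on the prior count and are no bound. Its value against day 1 rests on 1 to 3 counts per day 1 sample, and Ppp1r3c had 2 to 5 counts per myoblast sample. Ppp1r3a was under the count minimum in myoblasts and at day 1 and entered the fit only through myotubes. Its change at day 1 is thus between groups near 0 and no reliable estimate. Tigar encodes an enzyme that lowers fructose 2,6-bisphosphate. With piericidin, Stbd1 changed in LbNOX (2.16 ± 0.67) and mitoLbNOX cells (2.38 ± 0.64). With antimycin, Pgp (1.16 ± 0.34) changed in LbNOX and Stbd1 (3.10 ± 0.65) in mitoLbNOX cells, and with oligomycin Stbd1 (2.97 ± 0.67) in LbNOX cells. Under DMSO the LbNOX line differed at Slc16a7 (2.94 ± 0.62), which had 0 to 9 counts per luciferase sample. It passed the count minimum only through other groups, so the fitted value depends on those few counts. The piericidin effect differed from luciferase cells at Stbd1 (-2.52 ± 0.97), Phka2 (1.93 ± 0.23) and Pgm2 (1.36 ± 0.11) with LbNOX, Stbd1 (-2.30 ± 0.94) and Phka2 (1.44 ± 0.23) with mitoLbNOX and Phka2 (1.77 ± 0.25), Bpgm (1.34 ± 0.27) and Slc2a8 (1.09 ± 0.30) with NDI1. The antimycin effect differed at Stbd1 (-2.91 ± 0.98) and Bpgm (1.57 ± 0.25) with LbNOX and Bpgm (1.41 ± 0.25) and Slc2a8 (1.07 ± 0.26) with mitoLbNOX. Between myotubes and myoblasts the effects differed at Stbd1 (-3.91 ± 0.67), Phka2 (1.55 ± 0.21) and Gyg (1.52 ± 0.08) with piericidin, Stbd1 (-4.14 ± 0.67) and Bpgm (1.64 ± 0.19) with antimycin and Stbd1 (-2.76 ± 0.66), Gyg (1.62 ± 0.08) and Bpgm (1.16 ± 0.18) with oligomycin. At day 1 oligomycin changed Stbd1 (2.21 ± 0.21). In myotubes oligomycin changed Pgp (-1.38 ± 0.29) and Epm2a (-1.37 ± 0.48), and the BAM15 changes were 2.78 ± 0.40 for Ppp1r3b and 1.63 ± 0.17 for Ppp1r3c. BAM15 added to oligomycin changed Pygl (3.18 ± 0.81), Ppp1r3b (2.62 ± 0.40) and Epm2a (2.19 ± 0.45), and 5% oxygen added to it Pygl (3.64 ± 0.79), Epm2a (2.78 ± 0.44) and Ppp1r3b (2.27 ± 0.41). With oligomycin alone Pygl had 0 to 3 and Epm2a 3 to 8 counts per sample, so these values are imprecise. Both were under the count minimum there and entered the fit only through groups where they were high, so their rises follow partly from that filter. Oligomycin changed Stbd1 (2.90 ± 0.67), Ppp1r3c (1.33 ± 0.16) and Gyg (1.02 ± 0.05) in GFP myotubes and Stbd1 (1.92 ± 0.52) and Pgp (-1.26 ± 0.31) in LbNOX myotubes, where piericidin changed Pgp (-1.25 ± 0.31).

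The near copies Aldoart1, Aldoart2, Gapdhs, Ldhc and Pgk2 stayed at 1.29 CPM or lower in every sample. Libraries were not strand-specific, so reads of a gene and of an antisense partner cannot be told apart.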

How the data were processed

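Poly(A) RNA-seq libraries made by Smart-seq2, which keeps no strand, were sequenced as paired reads. The authors deposited estimated counts per gene, made with kallisto 0.44 against Ensembl mouse transcripts with the transgene sequences added, summed over transcripts with tximport and not normalised. These values were rounded to whole counts. The 32 genes and all lists were chosen with earlier results of these data known.

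Samples were grouped by their GEO labels. A gene entered a fit if 1 or more of its conditions had no replicate below 16 counts. Libraries were scaled by TMM and edgeR 4.0.16 (R 4.3.3) gave quasi-likelihood F tests in 6 fits and 48 comparisons, whose p-values were adjusted by Benjamini-Hochberg across every gene of the fit (threshold 0.05). The SE is the log2 fold change over the square root of F. The scripts were tested on simulated data. In each comparison up to 6 called genes of the 32 with the largest absolute log2 fold change were given with values, and up to 3 called genes of the other pathway list with an absolute log2 fold change of at least 1. Genes described beyond these, to follow a role or family across comparisons, were chosen after their values were seen. Alternatives were DESeq2 1.42.0 size factors, the DESeq2 Wald test, no count filter, only the groups compared, well position, a replicate block, and each replicate number left out. Promoters came from RefSeq (GRCm38.p6). Samples held 6458295 to 15366745 counts, so genes with few counts are imprecise.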

Additional observations from a re-analysis of the deposited data

Results flagged for a closer look

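The inhibitor effect differed between myotubes and control myoblasts, by the interaction test of edgeR, at 21 of these genes with piericidin, 17 with antimycin and 17 with oligomycin, out of 31 tested. Over all genes the effect was higher and lower in myotubes for 25.2% and 21.3% with piericidin, 25.4% and 22.5% with antimycin and 15.8% and 13.2% with oligomycin. Some of them were called in opposite directions in the 2 states. With piericidin these were Slc2a1 (difference of log2 fold changes -2.23), Pfkfb3 (-2.53), Pgk1 (-0.42) and Gys1 (-2.18), with antimycin Slc2a1 (-2.99), Pfkfb3 (-2.32), Pgk1 (-0.43) and Eno2 (-2.17), and with oligomycin Eno1 (-0.90) and Gbe1 (-0.79).

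Between transgenes in myoblasts, the effect differed from that in luciferase cells at 20 genes for piericidin with LbNOX, 19 for antimycin with LbNOX, 9 for oligomycin with LbNOX, 20 for piericidin with mitoLbNOX, 15 for antimycin with mitoLbNOX and 19 for piericidin with NDI1, out of 27 tested. In the same order, the shares of all genes with a higher and a lower effect were 22.3% and 22%, 24.7% and 26.8%, 3.8% and 4.18%, 21.5% and 21.4%, 15.4% and 16.3%, and 21.2% and 21.5%. The count of 9 was 3 to 6 when a replicate number was left out, and the count of 15 was 9 to 14. Opposite calls with LbNOX and piericidin were found for Gpi1 (0.81), Pfkl (1.89), Tpi1 (0.79), Pgam1 (0.70), Eno1 (0.28), Ldha (0.85) and Slc16a3 (3.51). With LbNOX and antimycin they were found for Slc2a1 (-2.86), Gpi1 (0.29), Pfkfb3 (-0.94), Tpi1 (0.56), Eno3 (1.21) and Pkm (0.20), and with mitoLbNOX and piericidin for Pfkp (0.62). The chloramphenicol effect differed between LbNOX and luciferase cells at 3 genes (0.0769% of all genes higher and 0.453% lower), and at 1, Ldha, with the replicate block. Ldha was called in opposite directions in the 2 lines (0.56).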

How the results depend on the processing

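No direction reversed under any alternative run. Of 421 alternative counts of these genes called, 380 stayed within 1.5 times the main count, and 529 of 709 calls were kept under every alternative. The calls lost were 15 of 709 with DESeq2 size factors, 18 of 708 with the DESeq2 Wald test, 49 of 709 without the count filter, 52 of 705 with only the groups compared, 26 of 685 with well position, and 88, 123 and 105 of 690 without replicate 1, 2 and 3. Without the count filter, the count for NDI1 cells with piericidin was 1, the LbNOX, mitoLbNOX and LbNOX-GFP differences under DMSO had 2, 1 and 5, chloramphenicol in LbNOX cells 12, its interaction 12, and piericidin at day 1 had 9. The DESeq2 Wald test gave 2 for LbNOX under DMSO, 5 for the chloramphenicol interaction and 1 for LbNOX against GFP. With only the groups compared the counts were 2 for LbNOX under DMSO, 5 and 2 for chloramphenicol in luciferase and LbNOX cells, and 6 for piericidin in GFP myotubes. With well position they were 7 for mitoLbNOX with piericidin, 5 and 1 for LbNOX and NDI1 under DMSO, and 3 for chloramphenicol in LbNOX cells. The cause was not tested.

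Replicate numbers were shared between groups, but same-numbered samples did not deviate together on average (mean correlations from -0.0377 to 0.0257 over the 6 fits). In every fit some of these pairs were positively and others negatively correlated, and whether some groups shared a batch was not tested. With the replicate block the count was 7 for mitoLbNOX with piericidin, 1 for NDI1 under DMSO, and 1 each for chloramphenicol in LbNOX cells and its interaction, and 18 of 709 calls were lost.

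When 1 replicate number was left out, counts ranged from 13 to 17 for antimycin against oligomycin, 8 to 10 for antimycin in LbNOX cells, 2 to 3 for piericidin in mitoLbNOX cells, 3 to 6 for the LbNOX interaction with oligomycin, 9 to 14 for the mitoLbNOX interaction with antimycin, 0 to 1 for LbNOX under DMSO, 5 to 10 for piericidin added to oligomycin, 6 to 14 and 10 to 15 for piericidin in GFP and LbNOX myotubes, and 1 to 2 for piericidin at day 1. Fewer samples were fitted there, and groups of 2 (GFP myotubes and NDI1 cells) kept 1 sample, whose spread is taken from the other groups. Leaving out a replicate was not run for chloramphenicol, where every group would have kept 1 sample, nor well position at day 1, where all samples were in outer wells. Genes with few counts, such as Slc2a3, Pfkfb1 and, in myoblasts, Pygm and Pgam2, are limited by depth.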
